A study of Mus musculus with 6 samples.

Results

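Genes of the bone and cartilage lineages were followed in mouse embryonic fibroblasts (MEF), adherent connective tissue cells, that had passed through a membrane with 3 μm pores. The 10 genes were chosen by name from the 55335 genes in the deposited count table. They encode the transcription factors Runx1, Runx2, Sox9 and Sp7, the enzyme Alpl, the matrix proteins Spp1, Postn, Omd and Acan, and the secreted receptor Tnfrsf11b. MEF cells collected after they had crossed the membrane of a transwell within 15 h (Confine) were compared with parental MEF cells (Ctrl). All cells were labelled wild type, came from a MEF line and were cultured in the same serum-containing medium. The medium in the inserts with 3 μm pores is not given in the sources used here, and in the study's transwell assay with a wider pore it lacked serum above the membrane and held serum below, so passage through the pores cannot be told apart from such a difference in serum. The labels give the transwell procedure for every sample and do not say on what surface the parental cells were kept. The study compared the groups to find candidate regulators of migration under confinement.

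The deposited table held 3 Ctrl and 3 Confine columns. Confine replicates 1 and 2 carried identical values across the 55335 genes and are treated as 1 library, called Confine 1 here, which left 3 Ctrl and 2 Confine libraries. Total counts ran from 22287210 to 32537550 per library. Levels are given as normalized CPM, the count of a gene over the scaled library total, scaled by the TMM method, in which 3 counts corresponded to between 0.101 and 0.128 CPM. Genes were tested with edgeR's quasi-likelihood test over the 15881 genes that passed a filter on low counts, with Benjamini-Hochberg adjustment over all of them, and a gene passed the test at an adjusted p under 0.05. By this rule 2035 genes were higher and 1619 lower in Confine, and when only library size was used for scaling these numbers were 1444 and 2805 and the median log2 fold change of all tested genes moved by -0.21. In bulk RNA, a change in the number of cells that express a gene cannot be told apart from a change in the RNA per cell.

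Osteoblasts and chondrocytes both arise from mesenchymal progenitors. Sox9 directs the chondrocyte program and switches on cartilage matrix genes such as Acan, whereas Runx2, followed by Sp7 (osterix), directs the osteoblast program, in which Alpl supplies phosphate for mineral and Spp1 is laid down in the matrix. Fibroblasts from the embryo are known to retain some capacity for both programs and to express several of these genes without forming bone or cartilage.

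Of the 10 genes, 8 passed the filter on low counts and 7 of these passed the test, 3 of them higher in Confine (Runx1, Sox9 and Spp1) and 4 lower (Alpl, Tnfrsf11b, Omd and Postn). Over all tested genes 23.0% passed, 12.8% higher and 10.2% lower. The 10 genes were chosen with earlier results of these data known, so their counts set beside shares of all genes are not a test. Runx2 did not pass, and Sp7 and Acan were not tested because of their low counts. The 8 genes had a median log2 fold change of -0.56, and all 15881 tested genes one of -0.0021. Alpl alone also exceeded an absolute log2 fold change of 1.5, a combination met by 8.00% of all tested genes, 4.89% higher and 3.11% lower. In 7 of the 8 tested genes, all but Runx2, the Confine libraries did not overlap the Ctrl libraries. This held for 49.5% of all tested genes, 25.9% higher and 23.6% lower. Without Confine replicate 3, 4 of the 10 genes passed, and the call of Spp1 also rested on the chosen scaling, as described with its values.

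**Figure D1:**
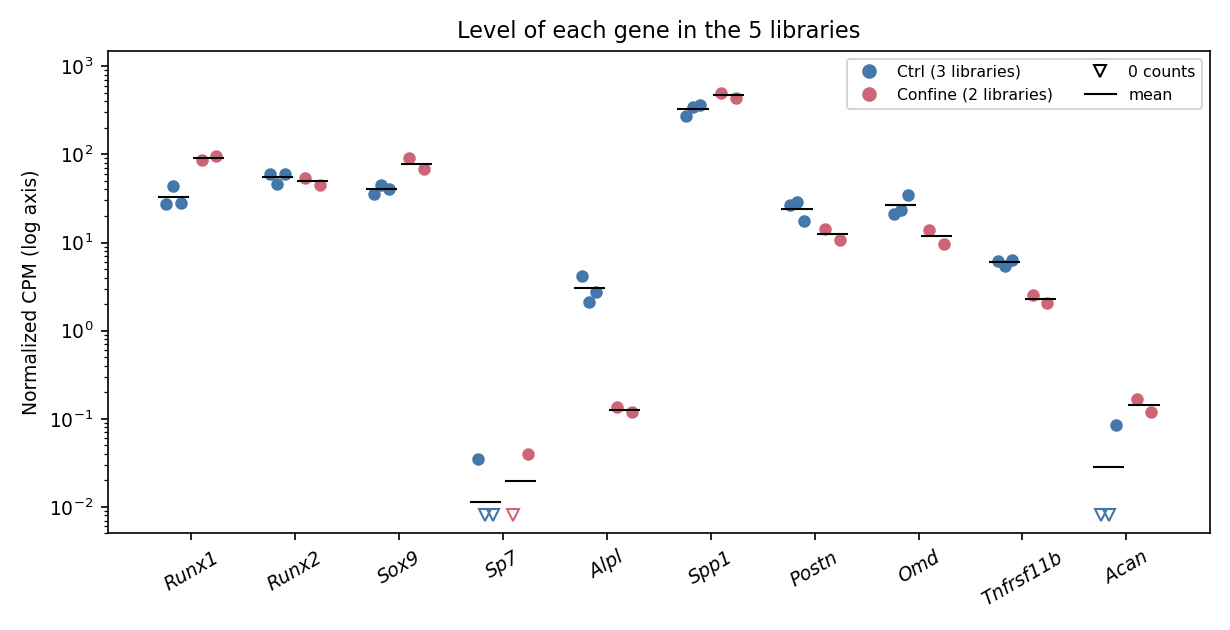
Normalized CPM (log axis) of the 10 genes in 3 Ctrl and 2 Confine libraries, with a point per library, a line at the group mean and an open triangle for 0 counts. Runx1, Sox9 and Spp1 lay higher in Confine, Alpl, Postn, Omd and Tnfrsf11b lay lower, Runx2 overlapped, and Sp7 and Acan were near 0.

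Since RUNX proteins bind the core TGTGGT, which reads ACCACA on the other strand, and several of these genes are regarded as RUNX targets, the 250 bases before each annotated transcript start were searched for it on both strands. RefSeq promoter windows (GRCm38.p6) were matched for 7 of the 10 genes, with 11 windows in all. The core was present in 2 of the 11 windows, 1 of Spp1 and the window of Runx2, and in 14.0% of the 32851 windows of all genes. In Runx2 its first base lay at position -80 and in Spp1 at position -128, counted from the transcript start, with -1 as the base just before it. The SOX core AACAAT, read on the other strand as ATTGTT, was found in 1 of the 11 windows, that of the upstream start of Postn, and in 9.42% of all windows, so no window of the 10 genes held both cores. A match describes the letters only. The windows of Spp1 and Runx2 are shown for the core they hold, printed in capitals, and those of Runx1 and Alpl because these had the largest rise and the largest fall among the 8 tested genes. Of the 2 windows of Alpl, the one at the upstream start is printed, and of the 2 of Spp1 the one that holds the core. All are written 5′ to 3′ along the strand of the gene.

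Spp1, chr5:104434861-104435110, plus strand: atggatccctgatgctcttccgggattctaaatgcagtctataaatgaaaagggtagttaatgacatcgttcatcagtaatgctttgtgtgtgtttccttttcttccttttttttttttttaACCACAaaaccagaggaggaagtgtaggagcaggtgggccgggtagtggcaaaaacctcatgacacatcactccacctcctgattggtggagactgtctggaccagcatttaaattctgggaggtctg

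Runx2, chr17:44814628-44814877, minus strand: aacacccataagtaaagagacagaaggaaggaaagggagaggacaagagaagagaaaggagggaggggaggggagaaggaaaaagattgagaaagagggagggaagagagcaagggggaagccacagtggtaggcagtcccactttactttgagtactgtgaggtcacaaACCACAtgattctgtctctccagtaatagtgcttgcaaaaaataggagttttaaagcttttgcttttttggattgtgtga

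Runx1 distal start, chr16:92826075-92826324, minus strand: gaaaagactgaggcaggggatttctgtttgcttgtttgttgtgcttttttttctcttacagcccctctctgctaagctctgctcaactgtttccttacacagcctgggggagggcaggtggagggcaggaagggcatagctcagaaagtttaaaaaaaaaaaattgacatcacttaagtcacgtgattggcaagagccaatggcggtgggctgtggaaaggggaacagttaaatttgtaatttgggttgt

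Runx1 proximal start, chr16:92697330-92697579, minus strand: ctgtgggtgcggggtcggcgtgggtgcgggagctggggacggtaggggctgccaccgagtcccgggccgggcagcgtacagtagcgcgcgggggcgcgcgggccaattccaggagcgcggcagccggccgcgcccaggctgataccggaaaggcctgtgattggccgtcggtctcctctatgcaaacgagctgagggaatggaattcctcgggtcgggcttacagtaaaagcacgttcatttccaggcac

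Alpl upstream start, chr4:137796385-137796634, minus strand: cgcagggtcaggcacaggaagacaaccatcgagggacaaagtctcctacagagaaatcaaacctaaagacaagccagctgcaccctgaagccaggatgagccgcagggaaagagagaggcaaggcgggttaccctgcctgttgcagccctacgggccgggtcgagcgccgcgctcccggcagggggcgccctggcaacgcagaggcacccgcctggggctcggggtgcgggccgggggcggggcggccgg

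Runx1, a RUNX transcription factor best known from blood formation and also active in early skeletal progenitors, had the largest rise among the 8 tested genes. Its locus spans 92601466 to 92826149 of chromosome 16 (GRCm38, minus strand). Its level was 27.0, 43.3 and 28.3 CPM in the Ctrl libraries and 86.1 and 95.8 CPM in the Confine libraries. Both Confine libraries were above the highest Ctrl library by a wide margin, and Ctrl replicate 2 was the highest of the Ctrl libraries. The mean rose from 32.9 ± 9.08 CPM (SD, n = 3) to 91.0 ± 6.88 CPM (SD, n = 2), with a log2 fold change of 1.47 (standard error 0.21, edgeR adjusted p = 4.08e-05). Counts per gene do not separate the distal and proximal starts shown above.

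Runx2 (chromosome 17, minus strand, 44495987 to 44814797), the factor required for osteoblast formation, was not shown to change. It had 59.5, 45.7 and 59.2 CPM in Ctrl and 53.4 and 45.3 CPM in Confine, so that the groups overlapped. edgeR fitted a log2 fold change of -0.15 ± 0.19 (standard error, adjusted p = 0.63), with a 95% interval from -0.55 to 0.25. This interval leaves room for a modest change in either direction.

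The third member of the family, Runx3, is not among the 10 genes but was the most abundant RUNX gene per length. Runx3 itself passed the test as higher, with a log2 fold change of 0.58 (edgeR adjusted p = 0.0232). It had 89.9, 103.8 and 86.5 CPM in Ctrl and 149.3 and 130.8 CPM in Confine. Per kilobase of exon, Runx3 made up 65.6% to 70.3% of the summed RUNX level in Ctrl libraries and 66.6% to 69.3% in Confine libraries. The merged annotated exons measured 12025 bases for Runx1, 8837 for Runx2 and 5003 for Runx3, and the size of the shares rests on these lengths. The share of Runx1 was 8.34%, 12.2% and 8.94% in Ctrl and 16.6% and 20.3% in Confine, whereas that of Runx2 was 25.0%, 17.5% and 25.4% in Ctrl and 14.0% and 13.1% in Confine. Runx1 thus lay below Runx2 in each of the 3 Ctrl libraries and above it in both Confine libraries. These shares are ratios within a library and do not depend on how libraries are scaled. The share of a gene also moves with the levels of the others, and the level of Runx2 itself was not shown to change. The groups did not overlap in the share of Runx1 (two-sided exact permutation test, p = 0.1, which is the lowest value this design can reach). In the share of Runx2 they did not overlap either (exact permutation test, p = 0.2). Cbfb, the partner with which RUNX proteins bind DNA, had a log2 fold change of -0.05 (standard error 0.20, edgeR adjusted p = 0.88).

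**Figure D2:**
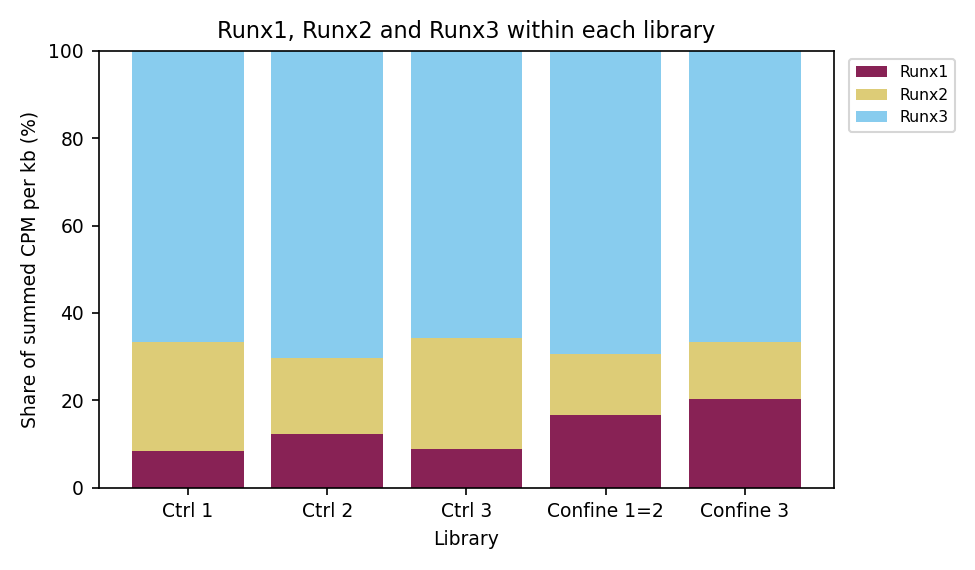
Stacked bars give the share (%) of Runx1, Runx2 and Runx3 in their summed CPM per kilobase of exon in each of the 5 libraries, where Confine 1=2 is the library deposited in 2 columns. Runx1 took 8.34% to 12.2% in Ctrl and 16.6% to 20.3% in Confine, and Runx2 17.5% to 25.4% and 13.1% to 14.0%.

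Sox9 (chromosome 11, plus strand, 112782224 to 112787760), the factor required for cartilage formation, was higher in Confine. Its level was 35.9, 45.0 and 40.2 CPM in Ctrl and 90.2 and 67.5 CPM in Confine. The Ctrl libraries lay close together, and the Confine libraries were both above them and differed more from each other. The mean was 40.4 ± 4.54 CPM (SD, n = 3) in Ctrl and 78.8 ± 16.1 CPM (SD, n = 2) in Confine, with a log2 fold change of 0.97 (standard error 0.19, edgeR adjusted p = 9.91e-04). Without Confine 1 the log2 fold change was 0.74 and the adjusted p was 0.0595 (edgeR), where the remaining Confine library is assumed to vary like the others. Within libraries, the log2 ratio of Sox9 to Runx2 per kilobase was 0.37, 1.07 and 0.54 in Ctrl and 1.85 and 1.67 in Confine (exact permutation test, p = 0.1).

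Sp7 (chromosome 15, minus strand, 102356606 to 102367182), which acts after Runx2 in the osteoblast, was near the limit of detection. Ctrl libraries held 1, 0 and 0 counts, Confine libraries 0 and 1. A difference between the groups was not detectable at this depth.

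Alpl (chromosome 4, minus strand, 137741733 to 137796384), the tissue-nonspecific alkaline phosphatase by which osteogenic cells are commonly stained, showed the largest change of the 10 genes. Its counts were 122, 56 and 65 in Ctrl, against 4 and 3 in Confine. Alpl was thus close to lost in both Confine libraries, and among the Ctrl libraries replicate 1 was highest. Its level fell from 3.03 ± 1.07 CPM (SD, n = 3) to 0.127 ± 0.0113 CPM (SD, n = 2), with a log2 fold change of -4.52 (standard error 0.55, edgeR adjusted p = 6.33e-06). As a ratio of summed counts at equal depth, Confine had 0.0415 of the Ctrl level, with an exact 95% interval from 0.0165 to 0.0868 that covers counting error only. When single libraries were omitted, the log2 fold change ranged from -4.73 to -4.21, with an adjusted p under 0.05 in each of the 5 fits.

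Spp1 (chromosome 5, plus strand, 104435118 to 104441050) encodes osteopontin, a secreted phosphoprotein of bone matrix that binds integrins and CD44 and is also made by fibroblasts and macrophages. Per kilobase of exon it was the most abundant of the 10 genes in both groups, at 197.8 ± 28.5 CPM per kb (SD, n = 3) in Ctrl and 284.2 ± 30.3 CPM per kb (SD, n = 2) in Confine. Its level was 272.4, 345.0 and 360.5 CPM in Ctrl and 503.8 and 433.1 CPM in Confine. The lowest Confine library was above the highest Ctrl library, so the groups did not overlap. edgeR fitted a log2 fold change of 0.52 ± 0.18 (standard error, adjusted p = 0.0486), close to the threshold. Scaled by library size only, it came to 0.31 (edgeR adjusted p = 0.231) and with median-of-ratios size factors the adjusted p was 0.0537, so the call of Spp1 was not kept under either scaling. When libraries were left out in turn, the call was kept in the fit without Ctrl replicate 2 (adjusted p = 0.0345) and lost in the other 4, with edgeR adjusted p from 0.0633 without Ctrl replicate 3 to 0.279 without Confine 1.

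Because macrophages are also a source of osteopontin, leukocyte markers were read beside Spp1. Of 12 leukocyte markers, 7 had at most 3 counts in every library, and among the defining ones Adgre1, Tyrobp, Cd52 and Cd3e had 0 counts throughout and Ptprc at most 2. The summed level of the list was 15.9 to 18.2 CPM in Ctrl and 35.9 to 41.4 CPM in Confine, of which Cd14, Cd68 and Lyz2 made up most. Cd68 and Cd14 rose, with log2 fold changes of 2.67 and 0.92, and Lyz2 fell, with -2.64 (edgeR adjusted p = 3.94e-07, 0.00444 and 3.53e-05). Csf1r also passed, with 8 to 20 counts in Ctrl and 34 and 44 in Confine. The part of these markers in the level of Spp1 was not tested. Of 6 osteoclast markers, Ctsk, which fibroblasts also express, was the only 1 tested, and it was higher in Confine (log2 fold change 0.60, edgeR adjusted p = 0.0422). Acp5 had 0 counts in each Ctrl library and 6 and 11 in Confine, Oscar had 5 to 8 counts in Ctrl and 0 and 1 in Confine, and Calcr and Dcstamp were at 0 throughout. The summed level of the osteoclast list was 9.40 to 11.4 CPM in Ctrl and 15.4 to 16.99 CPM in Confine, and its part in the level of Spp1 was not tested either.

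Postn (chromosome 3, plus strand, 54361109 to 54391037) encodes periostin, a matrix protein of the periosteum and of activated fibroblasts. Its level was 26.6, 28.8 and 17.4 CPM in Ctrl and 14.2 and 10.7 CPM in Confine. Ctrl replicate 3 lay well below the other Ctrl libraries and only a little above the higher Confine library. edgeR fitted a log2 fold change of -0.96 ± 0.24 (standard error, adjusted p = 0.00557). Without Confine replicate 3 it was -0.78 and the adjusted p was 0.135 (edgeR).

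Omd (chromosome 13, plus strand, 49582462 to 49592822) encodes osteomodulin, a small leucine-rich proteoglycan of mineralized tissue. It had 21.4, 23.2 and 34.7 CPM in Ctrl and 14.0 and 9.65 CPM in Confine, with Ctrl replicate 3 the highest. edgeR fitted a log2 fold change of -1.16 ± 0.24 (standard error, adjusted p = 0.00175), and without Confine replicate 3 it was -0.91 with an adjusted p of 0.0758 (edgeR). A stretch of Omd transcripts, up to 184 bp long, recurs in transcripts of at least 121 other genes with an identity of at least 95%. The search kept a limited number of matches per transcript, so more genes may carry it. Reads from that stretch may not be assignable.

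Tnfrsf11b (chromosome 15, minus strand, 54250619 to 54278484) encodes osteoprotegerin, a secreted decoy receptor that binds RANKL and restrains osteoclast formation. Its level was 6.18, 5.48 and 6.34 CPM in Ctrl and 2.57 and 2.06 CPM in Confine. The libraries of each group lay close together and the groups were well apart. The mean fell from 6.0 ± 0.457 CPM (SD, n = 3) to 2.32 ± 0.356 CPM (SD, n = 2), with a log2 fold change of -1.37 (standard error 0.28, edgeR adjusted p = 0.00138). Leaving out each library in turn gave -1.53 to -1.22, with an adjusted p under 0.05 in each of the 5 fits. Its ligand RANKL (Tnfsf11) was at 0 counts throughout Ctrl, against 3 and 2 in Confine, too few to compare.

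Acan (chromosome 7, plus strand, 79053483 to 79115099) encodes aggrecan, the large proteoglycan of cartilage and a target of Sox9. It had 0, 0 and 2 counts in Ctrl and 5 and 3 counts in Confine. The ratio of summed counts at equal depth was 5.76, with an exact 95% interval from 1.15 to 55.7 that covers counting error only. At this level Acan was 0.0193 ± 0.00472 CPM per kb (SD, n = 2) in Confine, beside 19.1 ± 3.89 CPM per kb for Sox9.

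**Figure D3:**
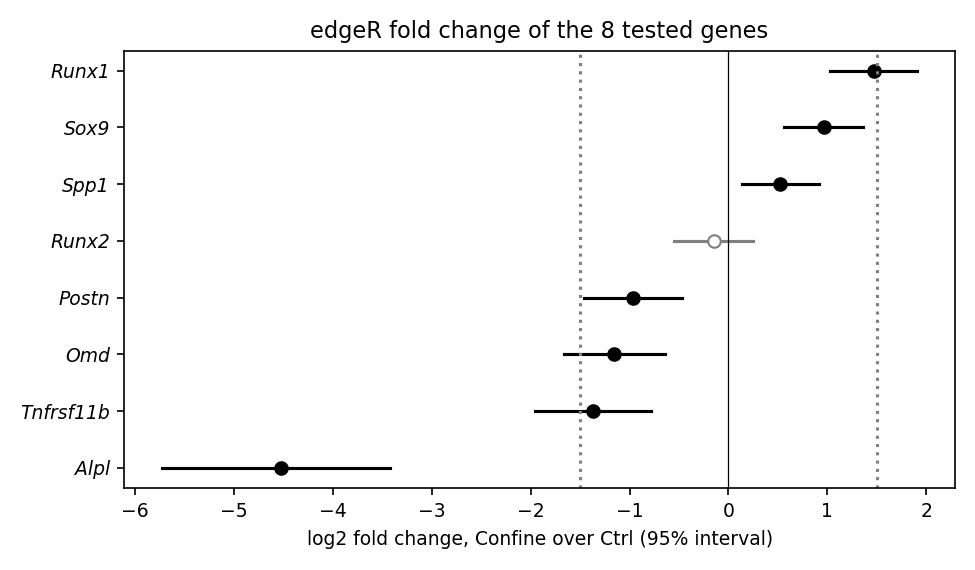
Points give the edgeR log2 fold change (Confine over Ctrl) of the 8 tested genes and bars its 95% interval, filled at an adjusted p under 0.05, with dotted lines at an absolute log2 fold change of 1.5. Alpl lay at -4.52, Runx1 at 1.47 was just inside the dotted line, and the interval of Runx2 crossed 0.

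Per kilobase of exon, the order of levels differed between the groups. In Ctrl, Spp1 was followed by Omd (11.8 ± 3.23), Sox9 (9.77 ± 1.10), Runx2 (6.20 ± 0.890), Postn (2.79 ± 0.693), Runx1 (2.74 ± 0.755), Tnfrsf11b (2.13 ± 0.162) and Alpl (0.752 ± 0.266 CPM per kb, SD, n = 3). The ranges of Omd and Sox9, of Postn and Runx1 and of Runx1 and Tnfrsf11b overlapped. In Confine, Spp1 was followed by Sox9, Runx1 (7.57 ± 0.572), Runx2 (5.58 ± 0.652), Omd (5.26 ± 1.37), Postn (1.43 ± 0.279), Tnfrsf11b (0.822 ± 0.126) and Alpl (0.0315 ± 0.00281 CPM per kb, SD, n = 2), and the ranges of Runx2 and Omd overlapped. Omd, next below Spp1 in Ctrl, thus stood below Sox9 and Runx1 in Confine.

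Omd lies in a row of related genes on chromosome 13, a neighbourhood examined after its values had been seen. From 5′ to 3′ the row is Ecm2, Aspn, Omd and Ogn, all on the plus strand and all within the span of Cenpp on the opposite strand, which encodes a centromere protein. All 4 were lower in Confine, with log2 fold changes of -1.47 for Ecm2 (edgeR adjusted p = 3.91e-04), -0.89 for Aspn (0.00554), -1.16 for Omd and -2.73 for Ogn (2.71e-08). Ogn, which encodes osteoglycin, had 4361, 3461 and 3837 counts in Ctrl and 606 and 612 counts in Confine, the largest fall of the row. Cenpp also fell, with 442, 501 and 428 counts in Ctrl and 132 and 188 in Confine (log2 fold change -1.55, edgeR adjusted p = 1.39e-04). No exon of Omd overlaps an exon of Cenpp. Within 200 kb on either side, Iars and the pseudogene Tes3-ps were also lower, while Bicd2, Ippk and Nol8 did not pass the test, with log2 fold changes of 0.16, -0.49 and -0.30. Of 11 other small leucine-rich proteoglycans and relatives, 8 were tested, 3 of them higher and 4 lower, with the lower ones including Ecm2, Aspn and Ogn. Outside the row Fmod was lower, with a log2 fold change of -1.38 (edgeR adjusted p = 1.33e-04), and Podn, Prelp and Bgn were higher, with 3.77, 1.21 and 0.58 (6.04e-09, 3.33e-04 and 0.0203).

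**Figure D4:**
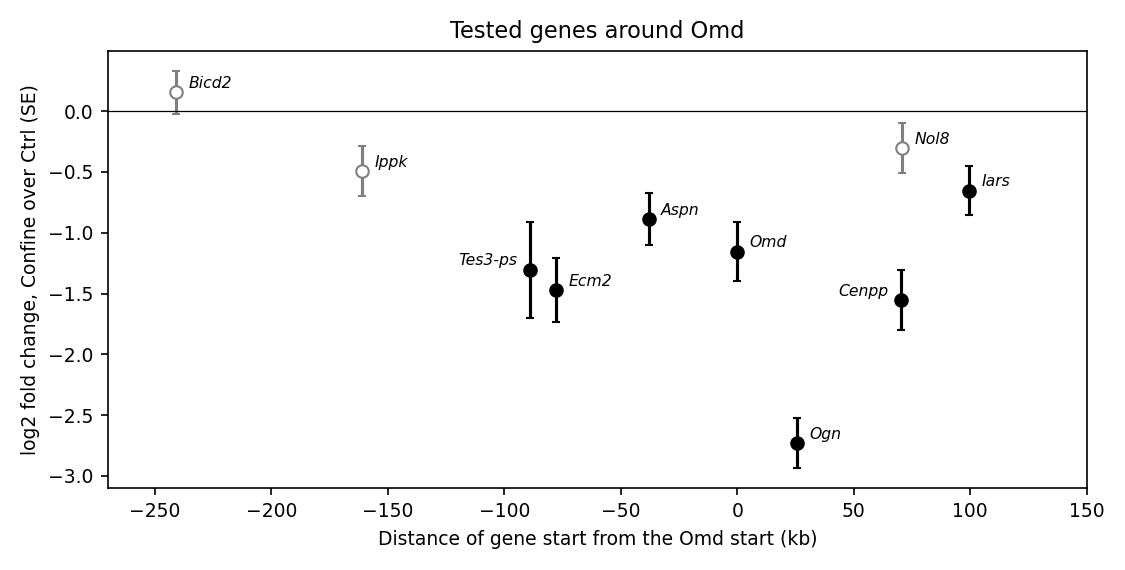
The log2 fold change (Confine over Ctrl, with its standard error) of the 10 tested genes around Omd against the distance of their start from that of Omd in kb, filled at an adjusted p under 0.05. Ecm2, Aspn, Omd, Ogn and Cenpp lay at -1.47, -0.89, -1.16, -2.73 and -1.55.

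Other genes of the 2 lineages were read from 7 lists of 126 genes in all. Of these, 83 were tested and 44 passed, 22 in each direction, with a median log2 fold change of 8.58e-05. The share of all tested genes that passed, to be set beside each list, was 23.0%, with 12.8% higher and 10.2% lower. The lists were chosen with earlier results of these data known, so such a comparison is not a test. Fewer listed genes passed without Confine 1, where the filter on low counts kept 85 of them. Of 20 further osteoblast transcription factors, 17 were tested, 2 passed as higher and 6 as lower. Dlx5, a homeobox factor upstream of Runx2 and Sp7, had 134, 90 and 128 counts in Ctrl and 25 and 16 in Confine (log2 fold change -2.58, edgeR adjusted p = 3.98e-05). Its neighbour Dlx6 had 18, 16 and 11 counts in Ctrl and 0 and 1 in Confine, a ratio of 0.0320 with an exact 95% interval of counting error from 7.93e-04 to 0.188. Dlx5 and Dlx6 were thus lower, as Alpl was, and a further DLX gene, Dlx3, had 0, 5 and 0 counts in Ctrl and 2 and 7 in Confine and was not tested. Snai2, a repressor of epithelial genes, fell with a log2 fold change of -2.43 (edgeR adjusted p = 5.35e-07), and Prrx1, a marker of limb mesenchyme, rose with 0.95 (0.00114).

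Of 25 bone matrix and mineralization genes, 17 were tested, of which 7 were higher and 2 lower. Those higher were Pdpn, a membrane glycoprotein of early osteocytes and of fibroblasts, with a log2 fold change of 1.70 (edgeR adjusted p = 4.00e-06), Enpp1, which makes pyrophosphate, with 1.64 (5.50e-06), and the matrix protein Tnc with 1.30 (8.10e-05). Mgp, matrix Gla protein, was higher with 1.26 (edgeR adjusted p = 1.00e-04), Ank, which exports pyrophosphate, with 0.81 (0.00722), the phosphate importer Slc20a1 with 0.79 (0.00303) and Col1a1, the main collagen of bone and of fibroblasts, with 0.66 (0.00945). Vdr, the vitamin D receptor, fell with -1.95 (edgeR adjusted p = 7.43e-05) and the sphingomyelinase Smpd3 with -1.13 (0.00952). The list thus held genes with opposed roles in mineralization among those that rose. Markers of later osteoblasts and osteocytes were scarce. Ibsp, Mepe, Sost and Phospho1 had 0 counts in every library and Bglap, which encodes osteocalcin, had at most 3, whereas a second osteocalcin gene, Bglap2, had 9 to 16 counts in Ctrl and 5 and 6 in Confine. Bglap2, Phex and Ifitm5 were tested and did not pass, with log2 fold changes of -1.11, 0.26 and 8.6e-05.

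Of 30 chondrocyte genes, 13 were tested, of which 2 were higher and 5 lower, although Sox9 was higher. Sox5 and Sox6, which act with Sox9 on cartilage genes, moved in opposite directions. Sox5 had 16, 6 and 14 counts in Ctrl and 65 and 32 in Confine (log2 fold change 1.92, edgeR adjusted p = 0.00872), and Sox6 had 67, 62 and 70 counts in Ctrl and 10 and 7 in Confine (-3.02, 6.60e-05). Chst11, a chondroitin sulfotransferase, rose with 1.54 (edgeR adjusted p = 5.97e-05). Col10a1, the collagen of hypertrophic cartilage, fell with -1.96 (0.00459), and Matn4, a matrilin, fell with -3.05 (1.20e-04). Col2a1, the main collagen of cartilage, did not exceed 5 counts per library, and Hapln1, Matn1 and Col9a1 had 0 in every library.

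Of 10 osteoprotegerin ligands and osteoclast signals, 7 were tested, of which 2 were higher and 1 lower. Mmp13, a collagenase of hypertrophic cartilage and osteoblasts, had 146, 106 and 68 counts in Ctrl and 12588 and 4319 counts in Confine, and the Confine libraries differed widely from each other (log2 fold change 6.22, standard error 0.33, edgeR adjusted p = 2.47e-10). Il34, a ligand of the receptor Csf1r, rose with 2.47 (edgeR adjusted p = 7.08e-07). Csf1, another ligand of Csf1r, had a higher level than Il34 in both groups. It did not pass, with a log2 fold change of -0.46 (edgeR adjusted p = 0.112). Sema3a, a guidance factor with effects on bone cells, fell with -1.90 (edgeR adjusted p = 2.55e-06). Of 9 receptors of osteopontin and periostin, 6 were tested and 3 were higher, Itgb3 with 3.05 (edgeR adjusted p = 7.00e-07), Itgav with 0.85 (0.00494) and Cd44 with 0.75 (0.00783), and none was lower at an adjusted p under 0.05. Of 21 lineage inducers, 15 were tested, of which 3 were higher and 4 lower. Grem1, a secreted BMP antagonist, rose with 1.86 (edgeR adjusted p = 7.93e-07). Bmp4 fell with -1.21 (edgeR adjusted p = 3.47e-04), the BMP mediator Smad9 with -2.54 (0.00176) and the Hedgehog target Gli1 with -1.60 (0.0169). The BMP receptor gene Bmpr2 was higher, with 0.62 (edgeR adjusted p = 0.0289). Bmp2, Bmpr1a, Smad1 and Smad5 did not pass, with log2 fold changes of -0.062, -0.035, 0.30 and -0.0050. Fgf18, a growth factor of cartilage and bone, had 3, 4 and 0 counts in Ctrl and 18 and 25 in Confine, a ratio of 8.85 with an exact 95% interval of counting error from 3.95 to 23.3.

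**Figure D5:**
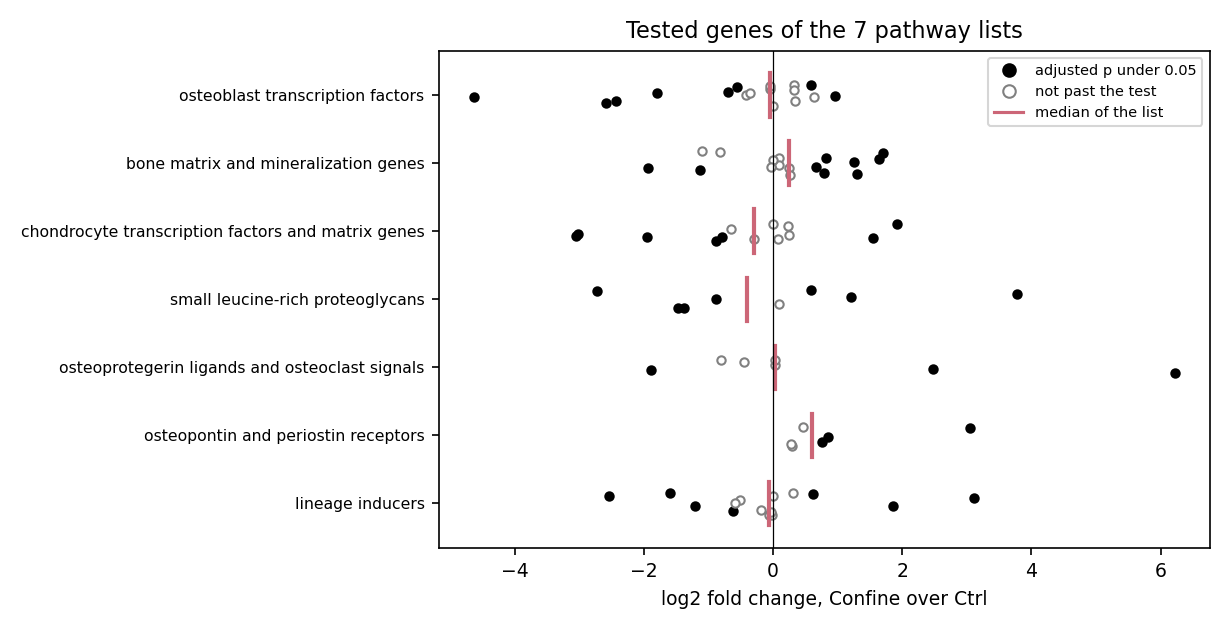
Each point is the log2 fold change (Confine over Ctrl) of a tested gene of the 7 lists, filled at an adjusted p under 0.05, with a bar at the median of each list. Of 83 tested genes, 22 were higher and 22 lower, and Mmp13 lay farthest out at 6.22.

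The label of the cells was checked against markers. Of 10 fibroblast markers 9 were tested, 7 of them higher and none lower at an adjusted p under 0.05, led in level by Vim (log2 fold change 0.97), with Col3a1 at 2.21. Thy1, often used to define fibroblasts, had at most 2 counts. The summed levels were 5764 to 6170 CPM in Ctrl and 12076 to 12704 CPM in Confine for the fibroblast list, 6.87 to 8.54 CPM and 16.1 to 24.5 CPM for the muscle list (Des and Tnnt2 tested and both higher, with Myod1 and Myf5 at 0), at most 0.675 CPM for the epithelial list and at most 0.718 CPM for the endothelial list. The part of these shifts in the 10 genes was not tested. Spp1 shares exon positions with Gm42793 on the same strand, with a match of up to 181 bp. Gm42793 had 0 counts in each Ctrl library and 0 and 2 in Confine. Its effect on the counts of Spp1 was not tested. Runx1 and Runx2 share exon positions with the antisense genes Gm26626 and Runx2os1. Gm26626 had 10, 10 and 20 counts in Ctrl and 20 and 9 in Confine. Runx2os1 had 41, 44 and 59 counts in Ctrl and 98 in both Confine libraries. The strand setting of the counting was not given in the sources used here, and the part of these antisense genes in the counts of Runx1 and Runx2 was not tested.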

How the data were processed

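RNA of MEF cells was extracted and sequenced by a company for the study, with polyT purification and dUTP libraries. Per the labels, the submitters' processing notes name Trim Galore 0.6.10, HISAT2 2.1.0, SAMtools 1.5, featureCounts and the genome build mm10. The authors deposited raw counts per gene, without normalization, in 6 columns, of which 2 were identical and were counted as 1. Gene names, positions and exon lengths came from GENCODE M21 (GRCm38), which holds 55154 of the 55335 gene identifiers without their version and 54587 with it. The 10 genes and the lists were chosen with earlier results of these data known.

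Genes kept by filterByExpr (15881) were scaled by TMM. In R 4.3.3, edgeR 4.0.16 (quasi-likelihood test, Benjamini-Hochberg adjustment) compared the groups with no term for the replicate number. Standard errors are the fitted log2 fold change over the square root of F. Group means, SDs and shares used normalized CPM, and CPM per kb the merged length of all annotated exons of the gene. Shares and orders per kilobase rest on that length, which can differ from that of the transcripts present. The fit had 3 residual degrees of freedom per gene. To these edgeR added a prior of 14.82 degrees of freedom (median), taken from the spread of all 15881 genes. The p-values and intervals of the fit thus rest more on spread shared across genes than on that of the single gene. Nothing in the labels says that replicates came from separate cultures, so p-values measure only the spread between these samples, which may be technical. Reads are not independent molecules, so intervals of counts cover counting error only.

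The rule for listed genes named all genes past the test with an absolute log2 fold change above 1.5, at most 3 per list and direction, or otherwise the passed gene with the largest change. For marker lists it named the gene with the highest level and those past both cutoffs. Runx3, Cbfb, Csf1r, Tnfsf11, Ank, Mgp, Tnc, Slc20a1, Smpd3, Col1a1, Acp5, Oscar, Dlx3, Fmod, Prelp, Bgn, Bglap2, Phex, Ifitm5, Ecm2, Aspn, Cenpp and other genes near Omd, Itgav, Cd44, Bmp4 and listed genes at or near 0 counts were named after their values were seen. The same holds for Csf1, Bmpr2, Bmp2, Bmpr1a, Smad1 and Smad5. Ank was listed under its synonym Ankh. The alternatives were DESeq2 1.42.0, limma-voom (limma 3.58.1), other scalings and filters, the replicate block, the identical columns as 2 samples and leaving out each library. Stretches shared between genes were sought in the M21 transcripts (blastn 2.17.0). The steps were tested on counts simulated for 15881 genes.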

Additional observations from a re-analysis of the deposited data

How the results depend on the processing

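Of the 8 tested genes, Runx1, Alpl and Tnfrsf11b passed the test in every fit that gave a value for them, and Runx2 in none. Their log2 fold changes ran from 1.25 to 1.72 for Runx1, from -4.73 to -4.19 for Alpl, from -1.58 to -1.22 for Tnfrsf11b and from -0.36 to -0.039 for Runx2. Alpl was not among the genes with at least 10 counts in every library, so that fit gave no value for it. Sox9, Postn and Omd each lost the call in 1 of 14 alternatives, and Spp1 in 7 of 14. No log2 fold change of these genes changed sign. Leaving out each library in turn gave 4 to 7 of the 10 genes, 28 to 47 of the listed genes and 2054 to 4426 of all tested genes at an adjusted p under 0.05, with the lowest numbers where 1 Confine library remained. The 2054 genes were without Confine replicate 3 (1196 higher, 858 lower, and 4 of the 10 genes), and without Confine 1 there were 2256 (1406 higher, 850 lower), with 28 listed genes. With the cutoff of 1.5 on the absolute log2 fold change as well, 1271 of all tested genes, 22 listed genes and 1 of the 10 genes passed. With library size alone, 34.0% of all genes that passed were higher, against 55.7% with TMM.

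The repeated library carries the replicate numbers 1 and 2. With the replicate block and that library as number 2, 2528 genes, 35 listed genes and 6 of the 10 genes passed, and as number 1, 4933, 48 and 7. Deviations from the group means were correlated across genes for same-numbered libraries. For the repeated library this gave 0.094 with Ctrl replicate 1 and -0.083 with Ctrl replicate 2, and for number 3 it gave -0.0075. With 2 Confine libraries the deviations of one mirror those of the other, so these correlations cannot decide whether the samples are paired. The numbers were not taken to pair the samples because no source used here states a pairing. Genes are not independent replicates. Spp1 lost the call in the block with the library as number 2 (log2 fold change 0.41, edgeR adjusted p = 0.36). Depth limits Sp7 and Acan. The cause of these changes was not tested.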

Other observations

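By Euclidean distance between mean-centred log2 CPM over the 5 libraries, the tested genes with a profile most like that of Alpl were Gm37822, Abi3bp and Mir3091, at distances of 0.529, 0.752 and 0.776. Abi3bp, which encodes a matrix protein, had 2468, 2107 and 1620 counts in Ctrl and 122 and 136 in Confine (log2 fold change -4.04, edgeR adjusted p = 6.26e-10). Gm37822 had 18, 12 and 15 counts in Ctrl and 0 in both Confine libraries, and Mir3091 had 26, 12 and 20 counts in Ctrl and 1 and 0 in Confine. With 5 libraries, such likeness mostly reflects a shared fall between the groups.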
